A study of Sus scrofa with 8 samples.

Results

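Solute carriers are membrane proteins that move nutrients, metabolites, ions and metals across the plasma membrane and across the membranes of organelles, each family (SLC2, SLC16, SLC25 and so on) with its own kind of substrate. In the heart they bring in glucose, lactate and fatty acids, pass phosphate, nucleotides and shuttle metabolites through the inner mitochondrial membrane, and set the pH and ion content of the cell. Leukocytes and fibroblasts use other members, for instance to remove metals from phagosomes or to exchange amino acids. The genes described here are 29 solute carrier genes out of 25470 transcripts on the array, each measured by 1 transcript cluster. They were selected on the regional difference itself. Symbols come from the deposited comparison table, whose 2331 transcripts differ between infarcted and remote tissue by 2-fold or more with a p under 0.05 before any adjustment, and 1533 of which have a symbol. All genes of that table named SLC and a digit were taken except SLC25A4. Since the same contrast chose them, their regional differences are a description, and whether a gene passed the test over all transcripts is stated as a further description that supports nothing. Solute carriers that changed less carry no name in that table and were not analysed here. RefSeq lists 355 pig genes named in this way.

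The tissue came from 4 young female Large White pigs with a balloon occlusion of the left anterior descending coronary artery for 90 min, and gave 4 infarcted and 4 remote samples, 1 of each from every pig. The infarcted sample was cut from the anterior wall of the left ventricle and the remote sample from the posterior wall of the same heart, so the remote tissue belongs to an infarcted heart and no heart without an infarct was measured. All animals had received amiodarone and acetylsalicylic acid and were kept for the study on the size of their infarct and their ejection fraction. The design text of the series places sampling at day 7 after the occlusion and the methods at day 10.

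Values are log2 signals normalized by the authors, and a difference is infarcted minus remote within a pig, so that a difference of 1 stands for a doubling. Array medians lay between 2.96 and 3.22, and a signal under all of them is not shown to be above background. Signals of different genes come from different probes, so that their levels cannot be ranked against each other. The SD of all log2 signals was 1.49 and 1.46 on the remote and infarcted arrays of pig 4 against 1.68 to 1.84 on the other arrays, so counts, and calls that change, are also given without it. For single genes, a call said to hold only in some fits compares all arrays, the pig as a replicate block and pig 4 left out. Cell type markers carry a name only where they passed the same regional thresholds, so their sums describe the samples and check nothing. Of 12 cardiomyocyte markers, 8 are named in the table: their summed linear signal was 13052 to 22809 in remote and 1960 to 9533 in infarcted tissue. For 6 named of 12 macrophage and monocyte markers the sums were 76 to 100 in remote and 208 to 606 in infarcted tissue, and for 7 named of 12 fibroblast markers 247 to 1004 and 2943 to 6919. None of the 8 endothelial, 5 adipocyte and 5 red cell markers is named. In such bulk tissue fewer cells of a type and less RNA per cell cannot be told apart.

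Of the 29 genes, 15 had a lower and 14 a higher mean signal in infarcted tissue. Their median differences were −1.59 and 1.49, beside 0.02 over all transcripts. Genes were tested by limma with region as the only factor, so a call did not use the pairing of samples within a pig. At an adjusted p under 0.05 over all transcripts, 12 of the 15 and 7 of the 14 were called, where 3.42% of all transcripts were called lower and 2.47% higher. With the pig as a replicate block the counts were 13 and 10 (5.66% and 4.57% of all transcripts), and without both arrays of pig 4 they were 14 and 13 (7.48% and 6.89%). Without pig 1, 2 or 3 the lower genes called numbered 2, 6 and 2 (0.428%, 1.07% and 0.593% of all transcripts) and the higher ones 0, 2 and 0 (0.232%, 0.479% and 0.31%), so these counts depended on which animals were included. At an unadjusted p under 0.05 by limma they were 13, 14 and 13 lower (5.77%, 6.76% and 5.98% of all transcripts) and 11, 11 and 10 higher genes (5.3%, 5.56% and 5.43%). The signals of the 4 infarcted and the 4 remote samples did not overlap for 11 of the lower and 8 of the higher genes, against 5.06% and 5.19% of all transcripts. All 4 pigs moved the same way for 14 of the lower and 10 of the higher genes, against 13.6% and 14.3%. SLC2A4, SLC4A7, SLC7A7, SLC11A1, SLC16A1, SLC16A10, SLC25A34, SLC27A1 and SLC35B4 stayed called in all 8 fits that left out 1 array. SLC44A5 stayed called in 6 of these 8 fits, and SLC22A3 and SLC37A2 in 4. Calls of SLC16A7, SLC22A17, SLC25A11 and SLC38A3 held in 3, of SLC9A9 and SLC25A3 in 2 and of SLC20A1 in 1. Since the table had chosen the genes on this contrast, nothing is read from these counts.

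**Figure D1:**
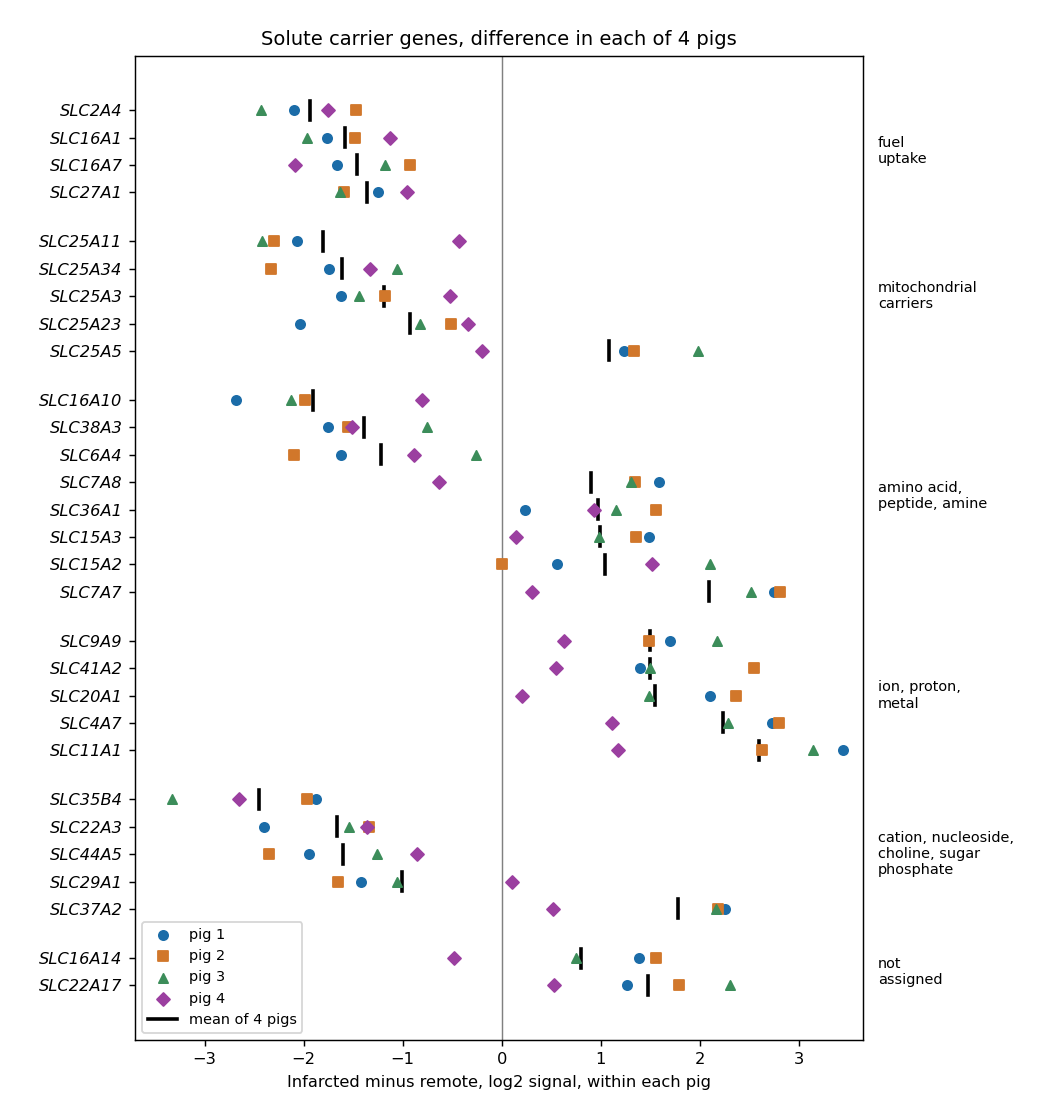
Infarcted minus remote log2 signal (x axis) of the 29 solute carrier genes (y axis), grouped by what they carry, with 1 symbol per pig and a black bar at the mean of the 4 pigs. The 4 genes of fuel uptake lie below 0 in every pig and the 5 ion, proton and metal carriers above 0 in every pig, and pig 4 is nearest to 0, or past it, for 12 of the 14 higher genes.

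The 4 carriers among these genes that bring fuel into the cell were lower in infarcted tissue in every pig. Fuel carriers without a symbol were not analysed. SLC2A4 encodes GLUT4, the insulin-responsive glucose transporter of muscle and fat. Its signals were 5.13, 4.75, 5.54 and 5.23 in the remote samples of pigs 1 to 4 and 3.03, 3.28, 3.11 and 3.48 in their infarcted samples. The infarcted values were close to each other and all below the lowest remote value. The mean fell from 5.16 ± 0.33 to 3.23 ± 0.20 (SD, n = 4 pigs), a difference of −1.94 ± 0.42 (SD) or 3.83-fold lower. As the infarcted mean lay at the level of the array medians, the size of the fall is not exact. The transcript also lists a further locus, LOC100739542, which the table describes as the same transporter.

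SLC16A1 encodes MCT1, which carries lactate and pyruvate together with a proton. Remote signals of SLC16A1 were 6.11, 6.22, 6.41 and 5.39 and infarcted ones 4.35, 4.74, 4.44 and 4.26. Pig 4 was the lowest in both regions, and the regions did not overlap. The difference was −1.59 ± 0.36 (SD, n = 4), 3.0-fold lower. SLC16A7, which encodes the related carrier MCT2 with a high affinity for pyruvate and lactate, had signals of 8.94, 9.39, 8.71 and 8.79 in remote and 7.28, 8.46, 7.53 and 6.70 in infarcted tissue. Unlike most of these genes it differed most in pig 4 (−2.09) and least in pig 2 (−0.93), with a mean of −1.47 ± 0.52 (SD).

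SLC27A1 encodes the fatty acid transport protein FATP1. Its remote signals of 4.71, 4.66, 4.61 and 4.35 and infarcted signals of 3.46, 3.07, 2.98 and 3.39 gave a difference of −1.36 ± 0.32 (SD, n = 4), the smallest SD of this group. The infarcted signals again lay near the array medians. The transcript shares its annotation with LOC106509433, so that part of the signal may belong to that locus. Of these 4 carriers, all 4 were called lower. With each array left out in turn, the call of SLC16A7 held in 3 of 8 fits and those of the others in all 8.

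**Figure D2:**
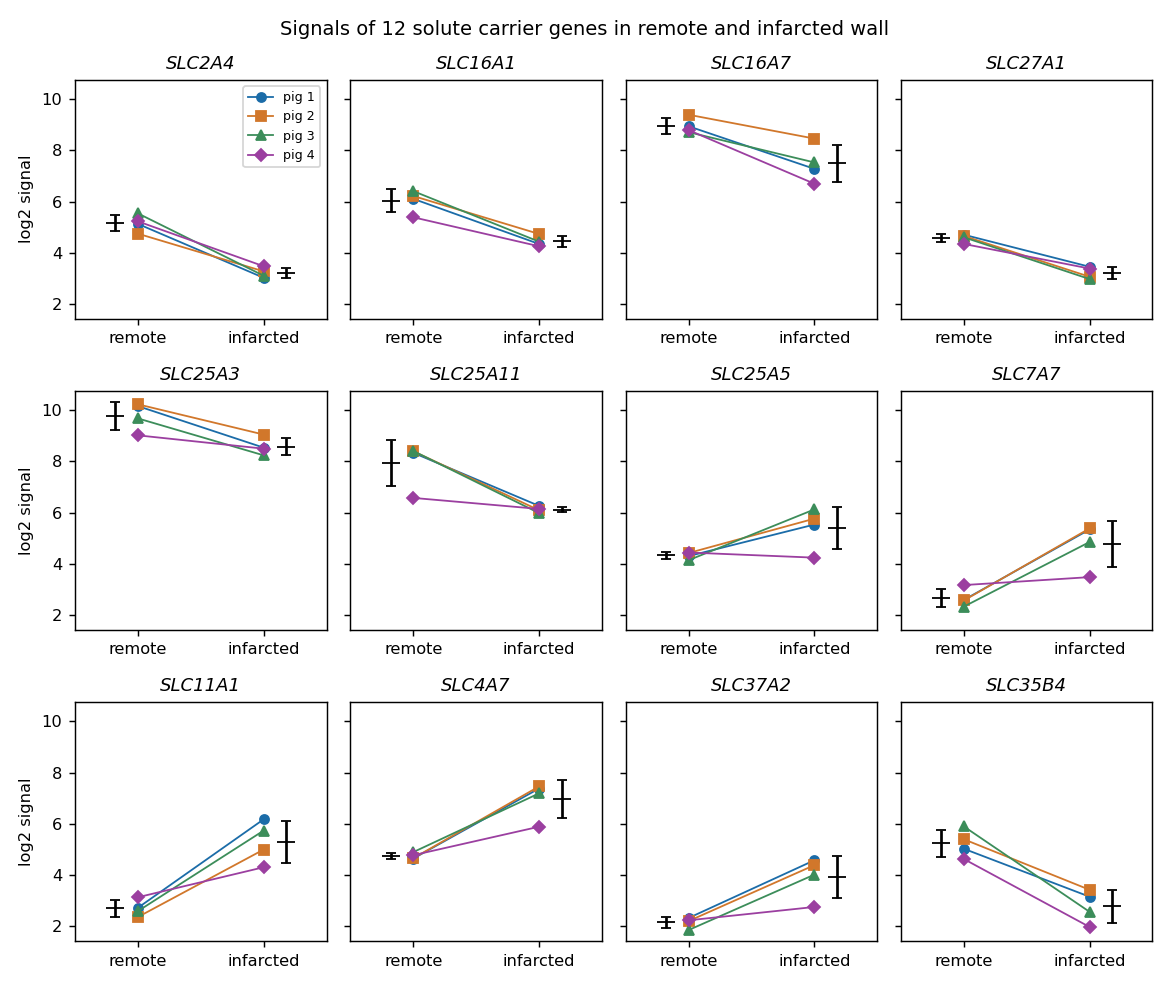
Log2 signal (y axis, same scale in all panels) of 12 solute carrier genes in the remote and infarcted sample of each pig (symbols joined by a line), with the mean and SD of the 4 pigs beside them. The lines of SLC2A4 and SLC16A1 fall alike in all 4 pigs, and the remote sample of pig 4 lies apart for SLC25A11. The infarcted sample of pig 4 lies lowest for the higher genes SLC25A5, SLC7A7, SLC11A1, SLC4A7 and SLC37A2. It also lies lowest for the lower genes SLC16A1, SLC16A7 and SLC35B4.

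Enzymes and channels that work next to these carriers were read from lists, with the limit that only members past the table's thresholds carry a name. Of 10 genes that handle pyruvate and lactate, 4 are named, and 2 were called lower and 0 higher: PDK4, the kinase that shuts off pyruvate dehydrogenase, at −2.83, and the dehydrogenase subunit PDHB at −1.74. The mitochondrial pyruvate carrier subunit MPC2 (−1.64) and the lactate dehydrogenase LDHA (2.09) did not pass, but both did with the pig as a block and without pig 4. Of 6 genes of fatty acid uptake and the carnitine shuttle, 3 are named and 2 were called lower, CRAT (−2.11) and CD36 (−1.90). The fatty acid binding protein FABP3 had the largest difference of that list (−3.09) and passed only with the pig as a block or without pig 4. In the creatine kinase system, 1 of 5 genes is named, the mitochondrial kinase CKMT2, called lower at −3.75. Of 7 genes of glucose phosphorylation and storage, only the glycogen synthase GYS1 is named, at −1.14 and called only without pig 4.

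Among the mitochondrial carriers, 4 of 5 were lower in infarcted tissue and 1 was higher. These SLC25 proteins sit in the inner membrane and exchange metabolites between the cytosol and the matrix. SLC25A11, the oxoglutarate carrier of the malate-aspartate shuttle, had remote signals of 8.34, 8.40, 8.41 and 6.58 and infarcted signals of 6.27, 6.10, 5.99 and 6.15. The infarcted values spanned only 0.28, while the remote value of pig 4 lay far below the other remote values and close to the infarcted level. The difference was therefore −2.07, −2.30 and −2.42 in pigs 1 to 3 but −0.43 in pig 4, with a mean of −1.81 ± 0.93 (SD, n = 4).

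SLC25A3 encodes the phosphate carrier that supplies ATP synthase. It had signals of 10.16, 10.23, 9.68 and 9.02 in remote and 8.54, 9.05, 8.24 and 8.50 in infarcted tissue, and here too pig 4 was the lowest remote sample. The infarcted sample of pig 2 lay just above the remote sample of pig 4, so the regions overlapped. The mean difference was −1.19 ± 0.48 (SD, n = 4), and −0.52 in pig 4. SLC25A34, a mitochondrial carrier whose substrate is not settled, was lower in each pig, with differences from −2.33 to −1.06 and group means of 4.84 ± 0.29 in remote and 3.22 ± 0.31 in infarcted tissue (SD, n = 4). This infarcted mean also lay at the level of the array medians.

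SLC25A23 encodes a calcium-regulated carrier that exchanges ATP-magnesium for phosphate. Its signals were 4.49, 3.83, 4.07 and 2.97 in remote and 2.45, 3.32, 3.25 and 2.63 in infarcted tissue. Pig 1 differed by −2.04 and the other pigs by −0.34 to −0.82, and the regions overlapped. The gene was called without pig 4 (−1.12) but not with all arrays or with the pig as a block. The infarcted mean of 2.91 was below the array medians. Its transcript also lists LOC102162013.

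SLC25A5, the ADP/ATP carrier ANT2 of growing and non-muscle cells, ran the other way. Remote signals were 4.31, 4.43, 4.15 and 4.45 and infarcted ones 5.54, 5.77, 6.13 and 4.25. In pigs 1 to 3 the infarcted sample was higher by 1.23 to 1.98, and in pig 4 it was lower (−0.20). The mean difference was 1.09 ± 0.92 (SD, n = 4), not called with all arrays and called without pig 4 (1.52).

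Of 10 genes for outer membrane channels and carrier import, 4 are named: the voltage-dependent channel VDAC1 fell (−1.36), while VDAC2, TIMM9 and TOMM20 did not pass, of which TOMM20 passed with the pig as a block and VDAC2 and TOMM20 without pig 4. The table holds a further mitochondrial carrier under a placeholder, LOC100524283, which RefSeq names SLC25A12, the aspartate/glutamate carrier that works with SLC25A11 in the shuttle. Its signals were 6.69, 6.94, 6.24 and 4.62 in remote and 4.76, 5.03, 4.12 and 4.45 in infarcted tissue. Its remote sample of pig 4 stood within the infarcted range, with a mean difference of −1.53 ± 0.91 (SD, n = 4), called only with the pig as a block or without pig 4. The placeholder LOC100157056, now SLC8B1, the sodium/calcium exchanger of mitochondria, was higher, with 1.89, 2.41, 2.03 and 2.31 in remote and 3.14, 4.21, 3.85 and 3.23 in infarcted tissue. It differed by 1.45 ± 0.44 (SD), from remote signals below the array medians. These genes were outside the selection by symbol and were looked up after the values had been seen.

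The 5 carriers of ions, protons and metals among these genes were higher in the infarcted sample of every pig, and 4 of 5 were called. With each array left out in turn, the calls of SLC11A1 and SLC4A7 held in all 8 fits. That of SLC9A9 held in 2 and that of SLC20A1 in 1. SLC11A1 encodes NRAMP1, which pumps divalent metals out of the phagosomes of macrophages and neutrophils, and it differed most of all 14 higher genes. Remote signals were 2.73, 2.37, 2.60 and 3.14 and infarcted ones 6.18, 5.0, 5.74 and 4.31. Every infarcted value was above every remote one, and pig 4 had both the highest remote and the lowest infarcted value. The mean rose from 2.71 ± 0.32 to 5.31 ± 0.82 (SD, n = 4), a difference of 2.60 ± 1.01. As its remote mean lay below the array medians, the size of 6.05-fold is not exact.

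SLC4A7 encodes NBCn1, which brings bicarbonate into the cell together with sodium and so counters acid. Its signals of 4.65, 4.66, 4.90 and 4.78 in remote tissue lay within 0.25 of each other, and those in infarcted tissue were 7.38, 7.46, 7.19 and 5.89. Pigs 1 to 3 differed by 2.29 to 2.80 and pig 4 by 1.11, with a mean of 2.23 ± 0.78 (SD, n = 4) or 4.70-fold higher. SLC9A9, the sodium/proton exchanger NHE9 of endosomes, went from 5.94 ± 0.24 to 7.44 ± 0.73 (SD, n = 4), with 7.71, 7.74 and 7.94 in the infarcted samples of pigs 1 to 3 and 6.35 in that of pig 4. No infarcted value of SLC9A9 fell within the remote range.

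SLC20A1 encodes PiT1, which takes up phosphate with sodium. Remote signals were 3.51, 3.11, 3.70 and 3.43 and infarcted ones 5.61, 5.48, 5.19 and 3.64, and only pig 4 stayed within the remote range. The mean difference was 1.54 ± 0.96 (SD, n = 4), and 0.21 in pig 4. SLC41A2, a magnesium transporter, differed by 1.5 ± 0.82 (SD, n = 4), from 2.33 ± 0.35 to 3.83 ± 1.11, with infarcted values from 2.36 in pig 4 to 5.04 in pig 2, and was called only with the pig as a block or without pig 4 (1.82). Its remote mean was under the array medians.

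Genes that handle calcium were read from a list in the same way, though calcium is not given here as a substrate of the carriers above. Of 9 genes of calcium handling, 4 are named, all lower in the mean, and 3 were called, among them the release channel RYR2 (−2.88) and the pump regulator PLN (−2.53). The channel subunit CACNA1C (−1.10) was called only with the pig as a block or without pig 4.

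Carriers of amino acids, peptides and amines differed in both directions, 3 lower and 5 higher in infarcted tissue, of which 2 and 1 were called. SLC7A7 encodes y+LAT1, which exports cationic amino acids in exchange for neutral ones. Remote signals of SLC7A7 were 2.60, 2.58, 2.34 and 3.18 and infarcted ones 5.35, 5.39, 4.86 and 3.49. The difference was 2.52 to 2.81 in pigs 1 to 3 and 0.31 in pig 4, and without overlap between regions its mean rose by 2.10 ± 1.2 (SD, n = 4) from a remote level under the array medians. Its relative SLC7A8, or LAT2, which exchanges large neutral amino acids, had 3.31, 3.35, 3.53 and 3.87 in remote and 4.90, 4.70, 4.84 and 3.24 in infarcted tissue. Pigs 1 to 3 were higher by 1.31 to 1.59 and pig 4 was lower (−0.63), so the mean of 0.91 ± 1.03 (SD) was not called, while without pig 4 it was 1.42 and called.

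In the RefSeq order of pig genes (Sscrofa11.1) SLC7A7 and SLC7A8 lie on chromosome 7 with 15 protein-coding genes between them, and SLC22A17, also higher, lies 5 protein-coding genes beyond SLC7A8. The nearest other pair of the 29 genes is SLC25A11 and SLC2A4 on chromosome 12, both lower, with 29 genes between them. This is a description of position, and genes in between that are not in the table were not examined.

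SLC16A10, or TAT1, carries aromatic amino acids and differed most among the lower members of this group. Signals of 5.69, 6.07, 5.99 and 5.21 in remote tissue stood against 3.01, 4.08, 3.86 and 4.41 in infarcted tissue. Pig 1 showed the largest difference (−2.68) and pig 4 the smallest (−0.80), with a mean of −1.90 ± 0.79 (SD, n = 4) and no overlap. SLC38A3, a glutamine transporter, was lower in each pig, with differences from −1.75 to −0.75 and means of 3.54 ± 0.45 in remote and 2.15 ± 0.43 in infarcted tissue (SD, n = 4), the latter below the array medians. SLC6A4, the serotonin transporter, differed by −1.22 ± 0.81 (SD), with overlap between the regions because the remote sample of pig 3 was at 3.42. It was called with the pig as a block but not with all arrays or without pig 4. The infarcted mean of SLC6A4 (3.21) lay at the level of the array medians.

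The remaining peptide and amino acid carriers were higher by about 1 and not called with all arrays. SLC15A3 and SLC36A1 were called with the pig as a block and without pig 4, and SLC15A2 with neither. SLC15A3, a lysosomal peptide and histidine transporter of immune cells, had 2.61, 2.92, 2.79 and 2.95 in remote and 4.10, 4.28, 3.77 and 3.09 in infarcted tissue, a mean difference of 0.99 ± 0.61 (SD, n = 4). SLC36A1, which moves amino acids with protons and also sits in lysosomes, had infarcted values of 3.54 to 3.86 and a difference of 0.97 ± 0.55 (SD), smallest in pig 1 (0.24). The remote means of SLC15A3 and SLC36A1 were below the array medians. SLC15A2, the peptide transporter PEPT2, stands on a transcript shared with its neighbour EAF2. Its signals were 1.62, 1.81, 1.66 and 1.56 in remote and 2.18, 1.81, 3.76 and 3.08 in infarcted tissue. Pig 2 did not differ at all, and both group means were below the array medians. Of 9 enzymes of amino acid metabolism, 5 are named, with the aminotransferases GOT1 (−2.64) and GOT2 (−2.17) called lower and the serine synthesis enzyme PHGDH (1.55) called higher. BCAT2 (−0.965) was called only with the pig as a block or without pig 4, and PSAT1 (1.295) only with the pig as a block.

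Carriers of organic cations, nucleosides, choline and sugar phosphates were lower in infarcted tissue for 4 of 5 genes. SLC35B4, which carries UDP-xylose and UDP-N-acetylglucosamine into the secretory pathway for the building of sugar chains, differed most of all 15 lower genes. Its signals were 5.03, 5.40, 5.90 and 4.63 in remote and 3.16, 3.43, 2.57 and 1.98 in infarcted tissue. The difference was −3.33 in pig 3, −2.65 in pig 4 and −1.87 and −1.97 in the other pigs, with a mean of −2.46 ± 0.68 (SD, n = 4). The infarcted mean of 2.79 was under the array medians, so that the size of 5.48-fold is not exact.

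SLC22A3 encodes OCT3, which takes up catecholamines and other organic cations. Remote signals were 5.86, 5.89, 4.80 and 5.25 and infarcted ones 3.46, 4.55, 3.26 and 3.89, a difference of −1.66 ± 0.50 (SD, n = 4) without overlap. SLC44A5, a choline transporter-like protein, was lower in each pig, with differences from −2.35 to −0.85, a mean of −1.60 ± 0.67 (SD) and an infarcted mean of 2.90, below the array medians. SLC29A1, or ENT1, which carries adenosine, had 5.68, 5.95, 5.66 and 4.0 in remote and 4.26, 4.30, 4.60 and 4.10 in infarcted tissue. Its remote sample of pig 4 lay below every infarcted value, so that pig 4 differed by 0.10 while the other pigs differed by −1.06 to −1.65. The mean of −1.01 ± 0.78 (SD, n = 4) was not called with all arrays and was called without pig 4 (−1.38).

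SLC37A2 was the higher gene of this group. It encodes a sugar phosphate antiporter of the endoplasmic reticulum that is abundant in macrophages. Signals were 2.33, 2.21, 1.86 and 2.24 in remote and 4.58, 4.39, 4.02 and 2.76 in infarcted tissue, without overlap. The difference was 2.16 to 2.25 in pigs 1 to 3 and 0.52 in pig 4, a mean of 1.78 ± 0.84 (SD, n = 4) from a remote level under the array medians.

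For the last members no transported substrate is given here. SLC22A17 is a cell surface receptor for the iron-binding protein lipocalin-2. It was higher in every pig, with 5.31, 4.96, 5.66 and 4.13 in infarcted against 4.04, 3.17, 3.35 and 3.60 in remote tissue, a mean difference of 1.48 ± 0.76 (SD, n = 4). SLC16A14, a monocarboxylate transporter relative, had 2.61, 2.16, 2.91 and 3.26 in remote and 4.0, 3.72, 3.66 and 2.78 in infarcted tissue. It was lower in pig 4 (−0.48) and higher in the other pigs, with a mean of 0.81 ± 0.92 (SD), not called, and 1.23 without pig 4, called. Its remote mean was below the array medians. A placeholder of the table, LOC106504075, is named SLC2A13 by RefSeq, a proton-coupled inositol transporter. Its infarcted signals were 5.12, 5.29, 4.74 and 2.65 against 3.44, 3.09, 3.20 and 2.92, so that only pig 4 was lower. The mean difference was 1.29 ± 1.08 (SD, n = 4), called only without pig 4, and the transcript also lists LOC100520492. Remote signals of SLC2A13 lay near the array medians.

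**Figure D3:**
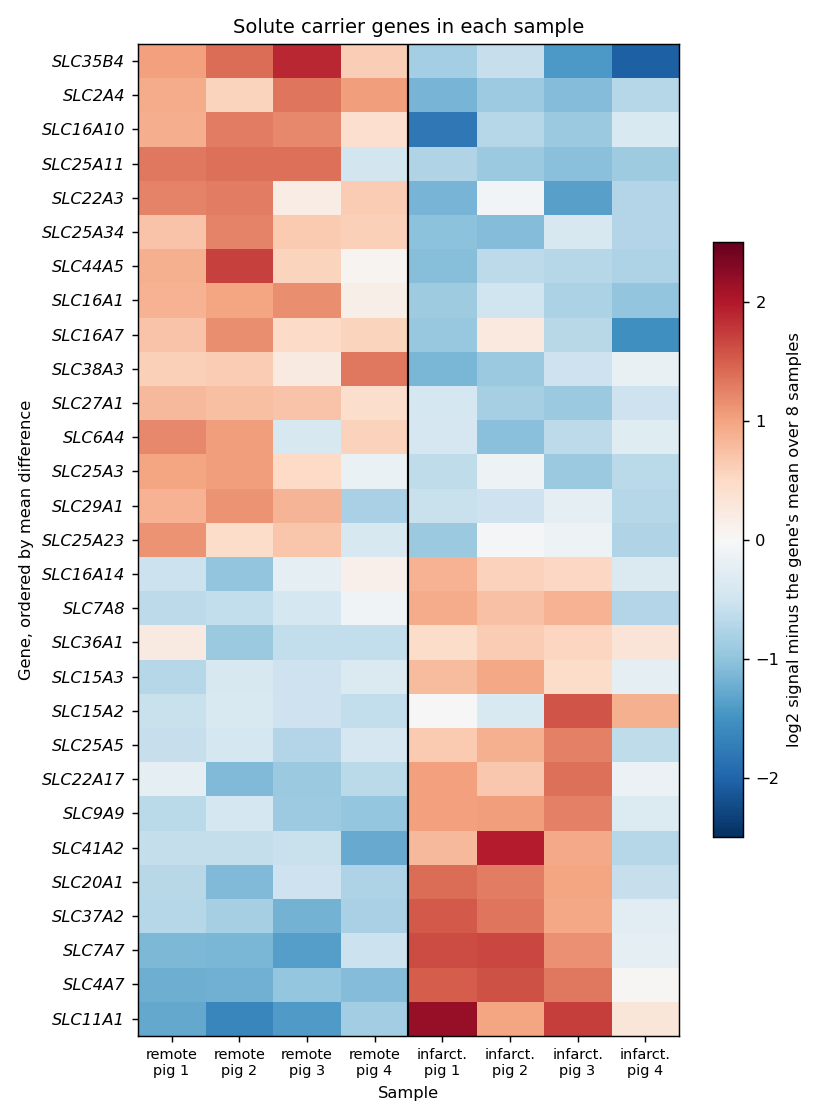
Log2 signal of each solute carrier gene (rows, ordered by mean difference) in the 8 samples (columns) after subtracting the mean of the gene over all samples. Red is above and blue below that mean. For 13 of the 14 higher genes the infarcted column of pig 4 is the lowest infarcted one. For 10 of the 15 lower genes the remote column of pig 4 is the lowest remote one.

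Pig 4 differed from the others in a way that many of the genes shared. Of the 14 higher genes, 13 had their lowest infarcted signal in pig 4 and 12 their smallest difference. Their median difference was 1.54, 1.68 and 2.04 in pigs 1 to 3 and 0.53 in pig 4. Of the 15 lower genes, 10 had their lowest remote signal in pig 4 and 8 their smallest difference, with medians of −1.76, −1.59 and −1.44 in pigs 1 to 3 and −0.96 in pig 4. This can be set beside all transcripts, of which 29.9% had their lowest infarcted and 30.4% their lowest remote signal in pig 4, and beside those called. Of all transcripts called higher, 70.0% had their lowest infarcted signal in pig 4 and 59.4% their smallest difference. Of all transcripts called lower, 63.8% had their lowest remote signal in pig 4 and 67.3% their smallest difference. After quantile normalization, which gives all arrays the same spread, the medians were 1.40, 1.60, 2.06 and 0.48 for the higher genes and −1.68, −1.44, −1.26 and −1.28 for the lower ones in pigs 1 to 4. After it, pig 4 still had the smallest median of the higher genes, while for the lower genes the medians of pig 3 and pig 4 were alike. Pig 4 then had the smallest difference for 12 of the 14 higher and 7 of the 15 lower genes.

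**Figure D4:**
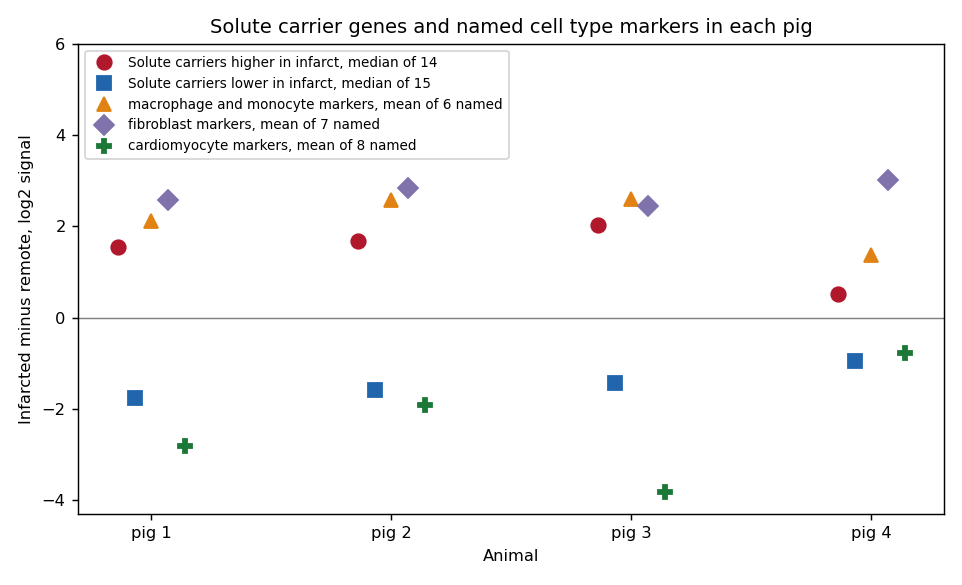
Infarcted minus remote log2 signal (y axis) in each pig (x axis) for the medians of the 14 higher and 15 lower solute carrier genes and for the means of the named macrophage, fibroblast and cardiomyocyte markers. In pig 4 the higher solute carriers (0.53) and the macrophage markers (1.37) were at their smallest difference, while the fibroblast markers (3.01) were at their largest.

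Cell type markers moved with these genes in part. The 6 named macrophage and monocyte markers differed on average by 2.13, 2.57, 2.61 and 1.37 in pigs 1 to 4, and 5 of them were called higher. The 7 named fibroblast markers differed by 2.58, 2.84, 2.45 and 3.01, with no smaller difference in pig 4, and 6 were called higher. The 8 named cardiomyocyte markers differed by −2.81, −1.91, −3.83 and −0.78, and 5 were called lower. Pig 4 was thus the smallest for cardiomyocyte and macrophage markers and the largest for fibroblast markers. Of the other lists, 2 of 7 neutrophil markers are named, with sums of 12 to 14 in remote and 19 to 149 in infarcted tissue and mean differences of 1.85, 2.37, 3.72 and 0.41 in pigs 1 to 4, and 1 was called higher. Of 6 smooth muscle markers, 3 are named, 1 called lower and 2 higher. Of 6 lymphocyte markers only NKG7 is named, called higher, and of 6 proliferation genes only CENPF, called only with the pig as a block or without pig 4. Markers are named in the table only where they changed as well, and the part of the cell types in the values of the solute carriers was not tested.

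Near the thresholds of the table, the members just inside were SLC16A14, SLC25A23 and SLC15A2. The averages in the table were matched by Tukey biweight means of the 4 arrays for all 2331 transcripts, within 0.015, and by plain means for 470 in infarcted and 484 in remote tissue. By the biweight means these members differed by 1.03, −1.04 and 1.04, just past the table's limit of a doubling. By plain means they differed by 0.81, −0.93 and 1.05, and 5 of the 29 genes were under 1 in size. Transcripts just outside the thresholds carry no symbol in the table and cannot be given. The averages lay farthest apart for SLC7A7 (2.67 by biweight against 2.10), SLC7A8 (1.39 against 0.91), SLC25A11 (−2.26 against −1.81) and SLC29A1 (−1.47 against −1.01).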

How the data were processed

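RNA of 4 infarcted and 4 remote samples was hybridised to GeneChip Porcine Gene 1.1 ST arrays. Log2 signals were deposited by the authors, who had processed the arrays with the Transcriptome Analysis Console. How probes were summarised is not given in the sources used here. A comparison table by the authors holds mean log2 signals per region, fold changes and p-values. Only its IDs, symbols and, as a check, its averages were used. Sheets of enrichment results and of excerpts were not used.

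Differences between regions were tested in R 4.3.3 with limma 3.58.1 (region as the only factor, empirical Bayes, Benjamini-Hochberg over 25470 transcripts, called at an adjusted p under 0.05). The median standard error was 0.274. The fit was tested on simulated data. Both samples of a pig share an animal label, and the deviations of these samples from their region's mean had a correlation across transcripts of 0.177, 0.428, 0.113 and 0.441 in pigs 1 to 4. With the infarcted sample of pig 2, the remote sample of pig 1 had a higher value (0.335) and that of pig 3 one nearly as high (0.0904). As the samples share an animal, the pig was also fitted as a replicate block. Other alternatives were quantile normalization, median centring, no dim transcripts, array weights, single-symbol transcripts, the mean of a gene's clusters and leaving out arrays or pigs. Nothing says how many biopsies a sample holds. The number of arrays limits the precision.

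The rule for naming took every member. Values in all samples are given for the largest changes, overall and per family, members whose pigs disagree, the one with the highest signal (a choice of what to print, not a ranking of levels) and transporters well known in the heart. At most 2 partner genes each way stand with each list, and a partner list is not reported here. Some further partner genes, values for SLC6A4, SLC9A9 and SLC22A17, and the placeholder loci were added after their values were seen. Members and lists were chosen with earlier results of these data known. Python 3.11.15, pandas 2.3.3, numpy 2.4.6 and matplotlib 3.10.9 were used.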

Additional observations from a re-analysis of the deposited data

Results flagged for a closer look

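Among the 58 sets of 4 signals, those of each of the 29 genes in each region, 5 held a sample far from the other 3, by Dixon's criterion, and all 5 samples came from pig 4. Chance flags about 1 in 20 sets of 4 independent normal values. These sets share the same arrays and their genes were chosen on the regional difference, so that rate is no measure for them. In remote tissue of pig 4 the signals apart were SLC25A11 at 6.58, SLC29A1 at 4.0 and SLC41A2 at 1.81, each the lowest of its region. In infarcted tissue of pig 4 they were SLC7A8 at 3.24 and SLC9A9 at 6.35, again the lowest. The arrays of pig 4 also had the smallest spread of signals, and the part of that spread in these values was not tested.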

How the results depend on the processing

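All 464 recomputed differences of the 29 genes, over normalizations, array weights and arrays or pigs left out, kept their direction. All stayed within 1 SD of the value given, and the smallest was 0.55 in size. Little is read from this. Leaving out 1 of 4 pigs cannot move a mean difference by 1 SD, so those settings could not fail that limit. The genes were chosen for a 2-fold difference, which favoured a kept direction. The block fit without pig 4 repeated the differences of the plain fit without pig 4, so the 464 include repeats. Counts of calls moved more. The pig as a replicate block gave 13 lower and 10 higher genes and 21 partner genes, against 12, 7 and 14, and moved each count by no more than 1.5 times. With array weights 15 lower genes were called. Higher genes numbered 4 with median centring, 13 with array weights and 13 without pig 4, also with the block. Partner genes numbered 24 with array weights, 22 without pig 4 and 24 without pig 4 with the block. Pigs 1 to 3 were left out in turn after the data had been seen: without pig 1, 2 or 3 the lower genes numbered 2, 6 and 2, the higher ones 0, 2 and 0, and the partner genes 4, 8 and 5. All transcripts called then numbered 109, 273 and 151 lower and 59, 122 and 79 higher. With 1 array left out the lower genes ranged from 6 (without infarcted replicate 1 or remote replicate 1) to 14 (without remote replicate 4), the higher ones from 3 (without infarcted replicate 1, infarcted replicate 3, remote replicate 2 or remote replicate 3) to 13 (without infarcted replicate 4) and the partner genes from 8 (without remote replicate 1 or 2) to 20 (without remote replicate 4). The lower genes also numbered 7 without infarcted replicate 3 or remote replicate 2, the higher ones 4 without infarcted replicate 2, and the partner genes 9 without infarcted replicate 1. Each gene had 1 cluster, so averaging clusters changed nothing. The causes of these shifts in the counts were not tested.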
